A study of Mus musculus with 2 samples.

Results

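Local break peaks at the ends of protein-coding genes are narrow pile-ups of DNA break ends, most of them just in front of a transcription start, in purified mouse splenic B cells. They were chosen from the read counts themselves: a 1 kb bin of chromosomes 1 to 19 was taken when it held at least 50 reads in a library and at least 10 times the median bin of the 100 kb around it in that library. The 300 bins with most G1 reads were left out, and the bin had to lie within 1 kb of an annotated start or end of a protein-coding gene in the mouse mm10 genome. Of 2460751 bins, 2656 met the peak rule, which is 0.108% of all bins and 38.4% of the 6919 bins with enough reads, and 2168 of these 2656 lay at a gene end. Since reads chose the bins, their read counts and the S-over-G1 ratios of those counts are given as a description. Another 172 bins at gene ends also met the rule but belonged to the left-out bins, each with 281 or more G1 reads.

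The study asked where break ends arise in primary B cells with no outside source of DNA damage, and compared 2 END-seq libraries. The S phase library came from activated B cells cultured for 24 to 28 h with 25 ng/mL interleukin-4 and 1 µg/mL anti-CD40 antibody, and the G1 library from quiescent B cells cultured without these agents. Both came from spleens of 4 to 8 week old mice, both were enriched as CD43- cells, and both carry the prefix ATR+c, which the labels do not explain. The labels name no strain, and whether several mice were pooled is not stated. There was 1 library per group, so no value below has a replicate check, and no test was made. The activation and the cell cycle phase changed together and cannot be told apart. END-seq measures no transcripts, so the labelled cell type could not be checked against expressed markers. The S phase library held 20543572 reads on chromosomes 1 to 19, against 26889564 in the G1 library. Values are therefore also given as RPM, the number per 1000000 of these reads, and a count of 0 allows up to 0.146 RPM in S phase and 0.112 RPM in G1. Intervals in parentheses are 95% intervals and cover counting error only.

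END-seq joins an adapter directly to a blunted DNA end, so that the first base of each read marks where an end lay and its strand tells on which side of the break the sequenced DNA was. A plus-strand read starts at an end whose DNA continues to higher coordinates, and a minus-strand read at an end whose DNA continues to lower ones. Many mammalian transcription starts lie in CpG islands, stretches of DNA rich in CG pairs, where chromatin is open and transcription often starts in both directions. The CCAAT box, bound by the trimeric factor NF-Y, is a common element of such promoters and usually lies a short way in front of the start.

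The DNA in front of 6 of the starts described here is shown because a large part of their read ends lay in it. This part ran from 177 of the bin's 439 S phase reads at Pgrmc2 to 185 of 196 at Dhx15. Pccb, Xpo1, Klhdc10 and Ran did not meet the limits for printing, which are given with the processing. In front of Pccb lay 17 of 453 S phase reads and in front of Ran 49 of 171. The promoter sequences are RefSeq's, of the assembly GRCm38.p6 that mm10 represents. Each is the 250 bases before the annotated start on the gene's own strand, and the capitals mark CCAAT or its reverse complement ATTGG. Pgrmc2 (chr3:41083047-41083296, minus strand) and Tars (chr15:11399659-11399908, minus strand) had peaks called in both libraries. Rsrp1 (chr4:134923375-134923624, plus strand), Dhx15 (chr5:52190547-52190796, minus strand), Fam117b (chr1:59912756-59913005, plus strand) and Tmem60 (chr5:20882203-20882452, plus strand) had peaks called in S phase only.
Pgrmc2: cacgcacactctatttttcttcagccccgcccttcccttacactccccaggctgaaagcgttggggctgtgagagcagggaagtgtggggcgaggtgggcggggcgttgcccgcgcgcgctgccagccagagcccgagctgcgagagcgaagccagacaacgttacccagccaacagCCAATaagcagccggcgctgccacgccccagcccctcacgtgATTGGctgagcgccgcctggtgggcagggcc
Tars: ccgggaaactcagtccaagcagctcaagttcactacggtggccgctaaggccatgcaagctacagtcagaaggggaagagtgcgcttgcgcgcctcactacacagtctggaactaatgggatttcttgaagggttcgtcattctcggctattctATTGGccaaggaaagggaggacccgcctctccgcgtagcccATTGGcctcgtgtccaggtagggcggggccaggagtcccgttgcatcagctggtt
Rsrp1: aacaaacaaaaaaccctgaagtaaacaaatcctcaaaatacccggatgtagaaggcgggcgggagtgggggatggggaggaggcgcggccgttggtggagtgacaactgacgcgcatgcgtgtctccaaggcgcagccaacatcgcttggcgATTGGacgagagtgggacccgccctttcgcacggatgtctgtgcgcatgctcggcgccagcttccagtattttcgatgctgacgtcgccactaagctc
Dhx15: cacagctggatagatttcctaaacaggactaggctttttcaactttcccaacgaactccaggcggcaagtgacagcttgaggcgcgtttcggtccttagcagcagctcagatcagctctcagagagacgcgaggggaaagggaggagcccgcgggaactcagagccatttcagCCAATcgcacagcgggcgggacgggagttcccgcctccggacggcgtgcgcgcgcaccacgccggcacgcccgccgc
Fam117b: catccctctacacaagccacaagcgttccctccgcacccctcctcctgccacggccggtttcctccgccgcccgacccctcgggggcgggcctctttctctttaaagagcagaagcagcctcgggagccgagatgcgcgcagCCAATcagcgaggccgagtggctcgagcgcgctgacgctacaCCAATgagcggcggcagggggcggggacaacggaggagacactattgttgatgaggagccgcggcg
Tmem60: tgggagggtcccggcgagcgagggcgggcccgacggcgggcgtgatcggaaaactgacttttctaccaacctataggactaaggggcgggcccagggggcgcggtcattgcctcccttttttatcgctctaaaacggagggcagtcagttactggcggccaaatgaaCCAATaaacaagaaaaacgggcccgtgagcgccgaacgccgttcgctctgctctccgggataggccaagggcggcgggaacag

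Within these stretches the fullest 30 bases, chosen on S phase reads alone, lay at different distances from the capitals. The choice favours S phase, so the S phase and G1 counts of these 30 bases do not measure a difference between the libraries. The whole stretches held 177 S phase and 102 G1 read ends at Pgrmc2, 371 and 241 at Tars, and 199 and 79 at Rsrp1. They held 185 S phase and 48 G1 read ends at Dhx15, 156 and 66 at Fam117b, and 99 and 53 at Tmem60. In front of Tars, the 30 bases from 92 to 63 before the start, which run from the last base of the ATTGG that begins 96 bases before it towards the one that begins at 55, held 211 S phase and 180 G1 read ends. In front of Rsrp1, the 30 bases from 89 to 60 before the start follow shortly after its only ATTGG, which begins 98 bases before the start, and held 171 S phase and 74 G1 read ends. The fullest 30 bases of Pgrmc2 began 112 bases before the start, ahead of a CCAAT at 73 bases, and held 82 S phase and 42 G1 read ends. In front of Dhx15 the fullest 30 bases began 129 bases before the start, also ahead of its CCAAT at 77 bases, with 167 S phase and 41 G1 read ends. The fullest 30 bases of Fam117b began 155 bases before the start, with 91 S phase and 33 G1 read ends, and its CCAAT copies begin 108 and 66 bases before it. Those of Tmem60 lay farthest from its only CCAAT, which begins 83 bases before the start: they began at 168 bases and held 41 S phase and 10 G1 read ends.

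Peaks were almost entirely at starts. Strand was known from the promoter table for 16456 of 20661 protein-coding genes. Of the 2168 bins, 1695 were at transcription starts only, 28 at gene 3' ends only and 123 near both. The other 322 were at ends of genes of unknown strand alone. Bins of the earlier classes may also lie near such ends, which this split did not consider. Starts made up 98.4% (97.7 to 98.9) of the bins that were at starts only or at 3' ends only, against 49.9% of all 1 kb bins of those classes. Put the other way, 4.17% of 40630 start bins and 0.0687% of 40762 3' end bins held a peak. Bins within reach of starts on both strands, as at divergent gene pairs, made up 17.1% of the start peaks (289 of 1695) and 5.98% of all start bins. The 2168 bins formed 2067 separate runs and belonged to 2081 genes, so nearly all peaks were confined to 1 bin. By chromosome, between 3.10% of start bins on chromosome 14 and 5.63% on chromosome 8 held a peak. Chromosome 18 has no gene of known strand here, so its 61 peaks are in none of the start and 3' end results.

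The peak rule was met at gene ends in both libraries by 1215 bins (56.0%), in S phase only by 867 (39.99%) and in G1 only by 86 (3.97%). Over all bins of the genome the rule was met by 0.102% in S phase and by 0.0651% in G1. Of the G1 calls at gene ends, 93.4% were also called in S phase, and of the S phase calls there 58.4% were also called in G1. Most bins called in 1 library were also raised in the other. The 867 bins called in S phase only had a median of 88 S phase and 56 G1 reads, their median G1 enrichment over the local median was 6.71 times, and 669 of them (77.2%) were at least 5 times over it in G1. The 86 bins called in G1 only had a median of 57 S phase and 86.5 G1 reads, and 79 of them (91.9%) were at least 5 times over the local median in S phase.

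**Figure D1:**
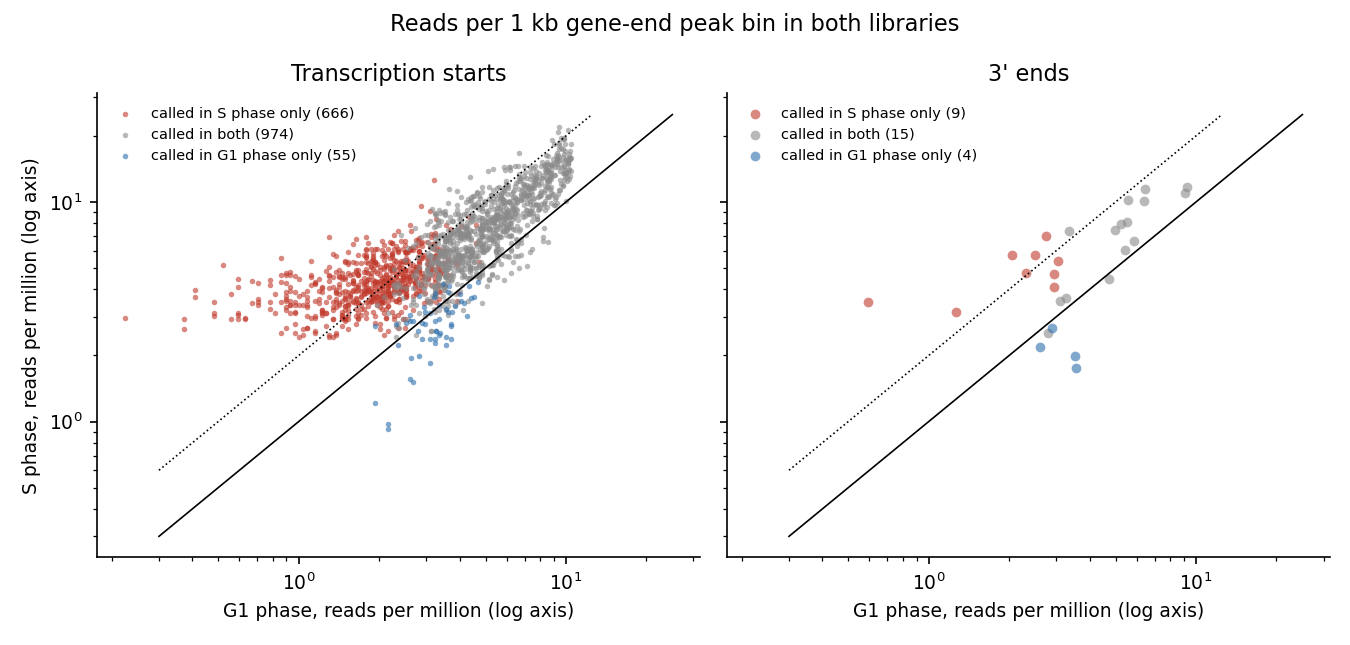
RPM per bin in S phase (vertical axis) against G1 (horizontal axis), both on log scales, for peaks at starts (left) and 3' ends (right), coloured by the library in which the rule was met, with a solid line at equal levels and a dotted line at a ratio of 2. Peaks called in both libraries have a median S-over-G1 ratio of 1.502, and the points end at 10.4 RPM in G1 (280 reads) because the bins with most G1 reads were left out; the start of Rnf166, with 64 S phase and 0 G1 reads, is not drawn.

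Peaks were higher in S phase at most gene ends after scaling to depth. A member bin held between 19 and 453 reads in S phase, with a median of 112 (5.45 RPM), and between 0 and 280 reads in G1, with a median of 92 (3.42 RPM). Relative to the local median bin, the median peak was 16.3 times higher in S phase and 11.6 times higher in G1. The reads of a bin fell on a median of 28 different positions in S phase and 18 in G1, and the fullest position held a median of 15 S phase and 14 G1 reads. Together the bins held 1.40% of the S phase reads and 0.863% of the G1 reads, a summed ratio of 1.62 (1.62 to 1.63), while the median ratio over bins was 1.67. The local medians around them differed less, with a median ratio of 1.12, and peak enrichment over the local median was a median of 1.53 times higher in S phase.

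The ratio was above 1 in 2028 of the 2168 bins (93.5%), at least 2 in 625 (28.8%) and at most 0.5 in 4 (0.185%). Of all 6919 bins that reached 50 reads in S phase or G1, 18.9% had a ratio of at least 2 and 16.6% a ratio of at most 0.5. Among the 488 peaks away from gene ends these shares were 25.8% and 3.28%. The share with a ratio of at least 2 was thus near that of the peaks away from gene ends, whose summed ratio was 1.46 and of which 79.3% had a ratio above 1. When every covered position was counted once, whatever its number of reads, the summed ratio of the same gene-end bins was 1.497.

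To read the ratio on counts that the thresholds did not use, the rule was also applied to the reads of 1 strand, with 25 reads in place of 50, and the other strand was read out. The 300 bins with most G1 reads of both strands were still left out. For 2792 gene-end bins chosen on plus-strand reads, the S-over-G1 ratio of the minus-strand reads was 1.56 (1.55 to 1.57), and it was 1.51 with no bins left out. The 1044 of them called in S phase only had a ratio of 2.65 on the strand that chose them and 1.57 on the other strand. The 359 called in G1 only had a ratio of 0.564 on the strand that chose them and 1.501 on the other. On the strand not used, bins called in S phase only, in G1 only (1.501) and in both (1.56, 1389 bins) therefore had nearly the same ratio. Chosen on minus-strand reads, 2814 bins had a plus-strand ratio of 1.60, with 1.62 for those called in S phase only, 1.54 for those called in G1 only and 1.59 for those called in both.

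Outside predicted gene models, the start peaks with most reads that were called in both libraries lay at general cellular genes. Pccb, which encodes a subunit of the mitochondrial propionyl-CoA carboxylase (chr9:101034001-101035000), had 453 S phase and 253 G1 reads, a ratio of 2.34. Pgrmc2, a haem-binding membrane protein, had 439 S phase and 273 G1 reads (2.10). Xpo1, the main nuclear export receptor, had 401 S phase and 264 G1 reads (1.99). Tars, the threonyl-tRNA synthetase, had 398 S phase and 264 G1 reads (1.97), and Klhdc10, a kelch-repeat protein, 399 S phase and 262 G1 reads (1.99). With G1 reads limited to 280 by the rule, the bins with most reads necessarily had high ratios. Counted once per position, Pccb had a ratio of 1.82 (1.07 to 3.16), Pgrmc2 1.71 (1.15 to 2.59), Xpo1 1.65 (1.15 to 2.39) and Klhdc10 1.48 (0.905 to 2.44).

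Among starts called in S phase only, Rsrp1, an arginine- and serine-rich protein, had 260 S phase and 86 G1 reads, a ratio of 3.96 (3.09 to 5.11). Dhx15, a helicase that takes the spliceosome apart, had 196 S phase and 77 G1 reads (3.33), but 2.47 with the fullest positions capped and 1.65 (0.841 to 3.35) with each position counted once. Fam117b had 187 S phase and 83 G1 reads (2.95), and 1.95 (1.101 to 3.58) with each position once. Ran, the GTPase that drives nuclear transport, had 171 S phase and 88 G1 reads (2.54), and 1.78 (0.941 to 3.50) with each position once. Tmem60, a transmembrane protein, had 175 S phase and 117 G1 reads (1.96). All 5 had more than the 50 reads of the rule in G1 too and missed only the enrichment over the local G1 median.

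Starts called in G1 only were few and low. Glcci1 had 89 S phase and 126 G1 reads, a depth-scaled ratio of 0.925. Prrc2a, an RNA-binding protein, had 76 S phase and 122 G1 reads (0.815), and Smndc1, a splicing factor, 75 S phase and 119 G1 reads (0.825). With each position counted once, Glcci1 stood at 1.09 (0.579 to 2.05), Prrc2a at 1.18 (0.637 to 2.20) and Smndc1 at 1.27 (0.660 to 2.48), which turns the direction of all 3 values.

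Of the 1811 gene-end bins with at least 50 reads in both libraries, the highest ratios outside predicted gene models were those of Rsrp1, Dhx15, Rab3ip (125 S phase and 50 G1 reads, 3.27), which activates the GTPase Rab8, and Ubr4 (137 S phase and 55 G1 reads, 3.26), a ubiquitin ligase. Among the lowest were those of the histone gene H2ac21 (64 S phase and 130 G1 reads, 0.644), of Clcn6 (50 S phase and 96 G1 reads, 0.682), an endosomal chloride transporter, and of the channel gene Pkd2l1 (64 S phase and 120 G1 reads, 0.698). H2ac21 was at 1.00 with each position counted once. At the threshold itself, the starts of Ipmk (60 S phase and 41 G1 reads), Polrmt (80 S phase and 39 G1 reads) and Mief2 (60 S phase and 67 G1 reads) were just inside at 10 times the local S phase median. Mplkip (79 S phase and 35 G1 reads), Derl1 (79 S phase and 50 G1 reads) and Acbd7 (79 S phase and 51 G1 reads) were just outside.

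The position and strand of the read ends were not used by the rule beyond the 1 kb bin. Around 1351 starts with a peak and no second start on the other strand, 53.0% of the S phase and 51.7% of the G1 read ends within 1 kb of the start fell in the 250 bases before it, and 18.4% and 17.4% in the 250 bases after it. Around 13190 starts without a peak, the 250 bases before the start held 27.7% of the S phase and 24.3% of the G1 read ends. Counting each covered position once gave 46.8% in S phase and 46.5% in G1 for the starts with a peak. The neighbouring bins were little raised: 1 kb to either side, the median enrichment over the local median was 1.57 and 1.56 times in S phase and 1.38 and 1.40 times in G1, and 2 kb away 1.14 times in S phase.

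Ends that extend along the gene and ends that extend against it peaked at different places. Ends that extend against the gene were most frequent in the step from 100 to 51 bases before the start, with 19767 S phase and 15977 G1 reads. Those that extend along the gene were most frequent in the last 50 bases before it, with 20141 S phase and 15272 G1 reads. At the median start, the median end along the gene lay 21 bases before the start in S phase and 23 in G1, and the median end against the gene 71 in S phase and 75 in G1. In S phase the share of ends along the gene was 33.3% between 500 and 1000 bases before the start, 43.8% in the 250 bases before it and 59.4% in the 250 bases after it. In G1 the same shares were 35.8%, 43.7% and 60.003%. At starts without a peak they were 48.1%, 45.6% and 54.4% in S phase, a smaller change of side across the start. Background reads weigh more at those starts, because the rule chose the others for high read counts. What part this has in the difference was not tested.

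**Figure D2:**
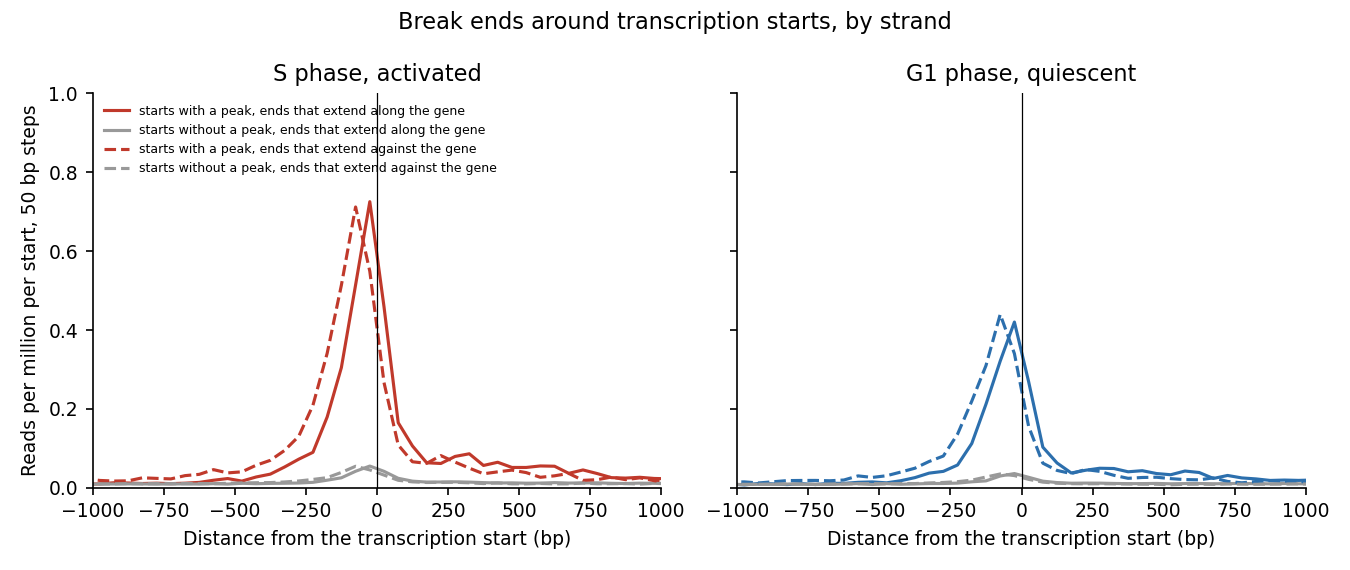
Read ends in RPM per start (vertical axis) in 50 bp steps against the distance from the transcription start (horizontal axis), in S phase (left) and G1 (right), for 1351 starts with a peak (colour) and 13190 without (grey), split by the direction of the end. In both libraries ends that extend against the gene (dashed) peak 100 to 51 bases before the start and ends that extend along it (solid) in the last 50 bases before it. Starts with only a left-out bin within reach count as without a peak.

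The S-over-G1 ratio was highest close to the start. For ends along the gene it was 1.27 between 500 and 1000 bases before the start, 1.61 in the 250 bases before it, 1.65 in the 250 bases after it and 1.39 between 500 and 1000 bases after it. For ends against the gene the ratios in the same places were 1.42, 1.61, 1.70 and 1.41. The 2 directions thus stood at the same ratio directly before the start and close to each other after it. These reads also chose the bins, so the ratios are a description. For ends along the gene at starts called in both libraries, the same places had ratios of 1.33, 1.54, 1.52 and 1.31. At starts without a peak they were 1.08, 1.40, 1.39 and 1.13.

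Within single peaks the plus-strand ends mostly lay to the right of the minus-strand ends. Of the 2016 S phase peaks with at least 10 reads on each strand, 84.3% (1700) had the centre of the plus-strand ends to the right, at a median signed distance of 41 bp. Of the 1271 such G1 peaks, 82.8% (1053) had this order, at a median of 31 bp. In peaks away from gene ends the shares were 78.6% in S phase and 70.1% in G1. With this order the ends face away from each other, with the sequenced DNA on the outer sides and a gap between the 2 centres.

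A minority of peaks held ends of almost 1 side only. In S phase 306 of 2082 gene-end peaks (14.7%) had 80% or more of the reads on the same strand, 158 on plus and 148 on minus. In G1 it was 211 of 1301 (16.2%), 107 on plus and 104 on minus. Away from gene ends it was 19.2% in S phase and 16.6% in G1. Among peaks called in both libraries, 178 were 1-sided in S phase and 196 in G1. Of these, 98 were 1-sided in both, all of them on the same strand, and the others in 1 library only. Across all peaks called in both libraries the plus-strand share correlated between the libraries (Spearman's rho 0.800, 1215 peaks from the same 2 libraries). Much of the 1-sidedness came from a few full positions: with each position counted once, 4.803% of the S phase and 6.23% of the G1 peaks were 1-sided.

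Examples show what such peaks look like. At the bin of Brca1, the homologous recombination gene that shares its start region with a gene on the other strand, 4 plus-strand and 235 minus-strand reads were found in S phase, and 2 plus-strand and 155 minus-strand reads in G1. Its fullest position held 120 S phase and 59 G1 reads, and another bin within 1 kb, with 373 S phase and 324 G1 reads, was left out. Acad12 had 8 plus-strand and 222 minus-strand reads in S phase, and 0 plus-strand and 105 minus-strand reads in G1. At Dhx15 the plus strand held 184 of 196 S phase reads and 55 of 77 G1 reads, while at Pccb the minus strand held 356 of 453 S phase reads and 220 of 253 G1 reads. Of the 1357 S phase start peaks with 1 direction of transcription, 89 were 1-sided along the gene and 109 against it, and of 854 in G1, 58 and 86.

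The 28 peaks at 3' ends had a median of 114.5 S phase and 89 G1 reads, against 114 S phase and 94 G1 reads at starts. Their summed ratio was 1.45 (1.38 to 1.52). They were not centred on the annotated end: the 250 bases before it held 3.98% of the S phase and 5.56% of the G1 read ends within 1 kb. At the end of Nop2, an rRNA methyltransferase, 241 S phase and 248 G1 reads were found, a ratio of 1.27, of which 203 in S phase and 223 in G1 were on the plus strand. Sirt7, a nucleolar deacylase, had 209 S phase and 150 G1 reads (1.82), 203 and 132 of them on the plus strand, and its ratio was 1.27 (0.954 to 1.68) with full positions capped. Dock3, an activator of the GTPase Rac, had 226 S phase and 245 G1 reads (1.21), and the neuropeptide gene Pth2 167 S phase and 149 G1 reads (1.47). Dock3 stood at 0.929 (0.592 to 1.45) with each position counted once. Called in S phase only were, among others, Sfn (118 S phase and 55 G1 reads), which encodes 14-3-3 sigma, and the chaperone gene Dnajb12 (111 S phase and 82 G1 reads). Called in G1 only were the 4 ends of Tmem267 (36 S phase and 96 G1 reads), of the zinc transporter gene Slc30a4 (41 S phase and 95 G1 reads) of Lsr, a lipoprotein receptor (55 S phase and 78 G1 reads), and of Lars2, the mitochondrial leucyl-tRNA synthetase (45 S phase and 70 G1 reads). Of the 28, 8 S phase peaks and 6 G1 peaks were 1-sided, of 24 and 19 called. Another start in the promoter table lay within 1 kb of 2 of the 28 (7.14%), against 1.55% of all 3' end bins. That table lacks the 4205 genes of unknown strand, so nearness to their starts could not be checked.

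The share of genes with a peak varied between gene lists. Of all 16456 genes with known strand, 12.4% had a gene-end peak within 1 kb of their start, 12% by the S phase calls and 7.64% by the G1 calls. A peak counted for every gene whose start lay within 1 kb of its bin, whichever gene the bin is named for. With the left-out bins counted too, 2195 genes (13.3%) had one within reach, and the replication and the neuronal list each gained 1 gene. The shares below are set against the genome's and are counts of listed genes with no test of the list.

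Splicing and RNA-binding genes and immediate early genes stood highest. Of 18 splicing genes 9 had a peak, 9 by the S phase and 6 by the G1 calls, among them Son (245 S phase and 263 G1 reads), which organises nuclear speckles, and the RNA helicase gene Ddx5 (183 S phase and 120 G1 reads). The splicing factor Tra2a had 80 S phase and 26 G1 reads, a ratio of 4.03, while Srsf6 (112 S phase and 107 G1 reads) was nearer to equal counts. The bin that holds the start of Hnrnpa1 had 123 S phase and 90 G1 reads (1.79). The bin next to it had 106 S phase and 127 G1 reads (1.09). The bins counted for Srsf1, Srsf5 and Hnrnpk did not contain the start. The 500 bases on each side of these starts held 2, 34 and 27 S phase and 5, 46 and 43 G1 reads. Of 17 immediate early genes, which respond within minutes to stimulation, 7 had a peak, 7 by the S phase and 5 by the G1 calls. The AP-1 subunit genes Jun (125 S phase and 66 G1 reads) and Junb (139 S phase and 87 G1 reads) were among them. Another AP-1 gene, Jund, had 76 S phase and 11 G1 reads, a ratio of 9.04 (4.78 to 18.9), and its 11 G1 reads fell on 3 positions. That bin is centred 762 bases past the start, and the 500 bases on each side of the Jund start held 1 S phase and 8 G1 reads. The other listed peaks were at Ier5 (244 S phase and 162 G1 reads), the antiproliferative genes Btg1 (175 S phase and 172 G1 reads) and Btg2 (118 S phase and 109 G1 reads), and the phosphatase gene Dusp1 (78 S phase and 61 G1 reads).

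Genes of DNA replication had 7 peaks in 22, 7 by the S phase and 4 by the G1 calls. The helicase subunit genes Mcm6 (201 S phase and 123 G1 reads) and Mcm5 (176 S phase and 119 G1 reads), the sliding clamp gene Pcna (111 S phase and 62 G1 reads) and the ribonucleotide reductase gene Rrm2 (99 S phase and 44 G1 reads) had ratios above 1. The origin firing gene Ticrr had 164 S phase and 166 G1 reads, and the origin licensing gene Cdc6 4.92 RPM in S phase and 3.46 RPM in G1. The bin counted for the helicase gene Mcm7 had 161 S phase and 193 G1 reads, a ratio of 1.09, while the 500 bases on each side of its start held 92 S phase and 133 G1 reads (0.905). The bin of Mcm3, with 303 S phase and 363 G1 reads, was among those left out. Of 16 DNA damage response genes 6 had a peak, 5 by the S phase and 5 by the G1 calls. They ran from Mdm2, the negative regulator of p53 (152 S phase and 71 G1 reads, 2.80), over Chek2, a checkpoint kinase (193 S phase and 201 G1 reads), to Atrip, the partner of the kinase ATR (46 S phase and 96 G1 reads, 0.627). Histone genes had peaks in 5 of 14 by either library, ribosomal protein genes in 4 of 17 and genes of quiescence in 3 of 12, of which Btg1 and Btg2 are the immediate early peaks given above. The linker histone gene H1f5 had 123 S phase and 139 G1 reads, and the ribosomal stalk gene Rplp0 254 S phase and 228 G1 reads. The bin counted for Rps2 lay past the start, whose 500 bases on each side held 5 S phase and 8 G1 reads.

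Genes induced by interleukin-4 and CD40 were near the genome's share, with 3 peaks in 22, at Cish (51 S phase and 74 G1 reads), Xbp1 (95 S phase and 102 G1 reads) and Pim1 (188 S phase and 163 G1 reads). Of 13 genes of B cell identity 1 had a peak, the octamer factor gene Pou2f1, and the start regions of Cd79a, Pax5 and Cd22 had none. No gene-end peak was counted at 6 T cell, 6 myeloid and 8 neuronal genes, although the neuronal gene Dlg2 had a left-out bin with 223 S phase and 349 G1 reads. Of 4 erythroid genes 1 had a peak, the globin gene Hba-a1 (103 S phase and 118 G1 reads). At the genome's share of 12.4%, lists as short as these hold few peaks or none, so none of these counts is set apart from it. The lists were not matched for the CpG number of their promoters. The median start of the T cell genes held 0.243 RPM in S phase and 0.242 in G1, close to the limit that a count of 0 allows, and the median start of all genes 0.584 in S phase and 0.483 in G1.

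**Figure D3:**
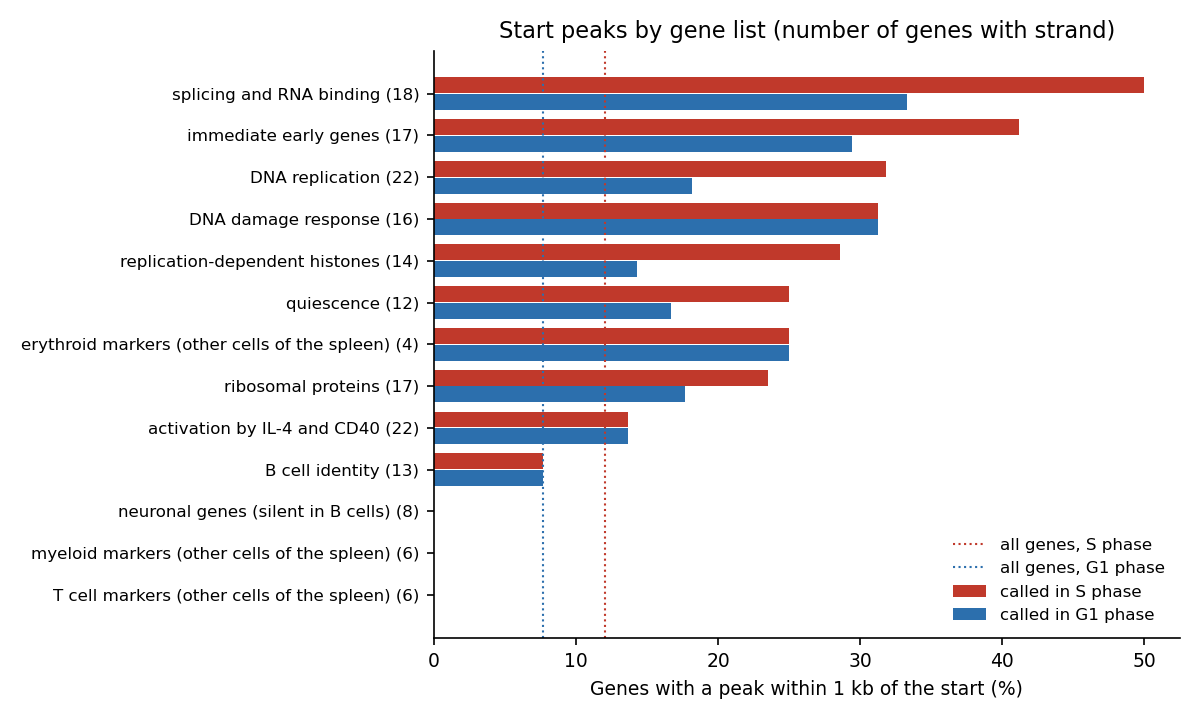
Share of listed genes with a peak within 1 kb of the start (horizontal axis, %) by gene list and library of the call (S phase bars above G1 bars); dotted lines mark the shares over all genes with known strand and labels give the number of genes. The splicing list stands highest at 50.0%, and the T cell, myeloid and neuronal lists have no gene with a counted peak (the bin of the neuronal gene Dlg2 was left out for its G1 reads). These lists are too short to be set apart from the share over all genes.

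The promoters of the starts with a peak were read for sequence features, which the rule did not use. RefSeq promoter sequences from 250 bases before to 50 bases after the start were matched for 14810 genes, 1961 with a gene-end peak and 12849 without. Genes with only a left-out bin within reach count as without a peak. Promoters with a peak had a median GC content of 63.0% and 24 CpG pairs, against 55.3% and 11 without a peak. Split by CpG number into 4 classes, the share with a peak was 0.527% at 0 to 4 CpG, 7.35% at 5 to 14, 21.98% at 15 to 25 and 24.4% at 26 to 65. The S-over-G1 ratio of reads around the start had the same order, with 1.01, 1.38, 1.53 and 1.61. Promoters without a peak alone gave 0.999, 1.29, 1.47 and 1.52. Peak height among the 1961 promoters with a peak hardly followed CpG number (Spearman's rho 0.0786 in S phase and 0.0114 in G1, across promoters of 1 library each). For the ratio, rho was 0.133. The rule set a lower limit on height and left out the bins with most G1 reads, which narrows the range of heights that could follow CpG number.

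Letters of 8 known promoter elements were searched on both strands. CCAAT was found in 70.8% of the promoters with a peak and 34.6% of those without (39.4% of all 14810). GGGCGG, the core of the Sp1 site, was found in 76.5% with a peak and 43.4% without (47.8% of all), and CGGAAG, the core of an ETS factor site, in 35.0% and 20.2% (22.2% of all). TATAAA, the TATA box, was rarer with a peak, at 5.30% against 15.2% (13.9% of all), as was the AP-1 site TGAGTCA, at 1.78% against 5.004%. TGACGTCA, the cyclic AMP response element, was found in 3.88% with a peak and 2.24% without. The palindromic NRF1 site was found in 2.50% and 1.29%, and a palindromic element of some CpG island promoters in 1.12% and 0.654%. Of the CCAAT copies 0.956% overlapped another of these motifs, against 1.93% for GGGCGG and 5.27% for CGGAAG. A match of letters is a description and not a bound site.

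The share of promoters with a peak was higher with more CCAAT copies, also at like CpG number from 5 CpG up. It was 6.39% with no copy, 15.1% with 1, 33.1% with 2 and 54.8% with 3 or more. Among promoters with 15 to 25 CpG it was 8.24%, 26.6%, 53.2% and 69.3%, and among those with 26 to 65 CpG 13.5%, 36.5%, 67.5% and 69.1%. With 5 to 14 CpG it was 3.04%, 7.18%, 14.5% and 52.9%. With 0 to 4 CpG it had no such order, at 0.450%, 0.561%, 0.265% and 2.86%. The ratio had no common order over the copies. For 0, 1, 2 and 3 or more copies it was 1.66, 1.66, 1.57 and 1.47 with 26 to 65 CpG, but 1.34, 1.40, 1.45 and 1.39 with 5 to 14 CpG. Peaks called in both libraries had the most copies, a mean of 1.75 per promoter, against 0.844 for peaks called in S phase only, 1.18 for those called in G1 only and 0.473 for promoters with no peak. At least 1 copy was found in 82.0% of the promoters called in both libraries, 54.2% of those called in S phase only and 63.9% of those called in G1 only. The calls also differ in height. Peaks called in both libraries had a median of 154 S phase and 131 G1 reads, those in S phase only 88 and 56. Copies by call were thus not separated from copies by height. The count by copies was chosen after the shares by motif were seen.

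**Figure D4:**
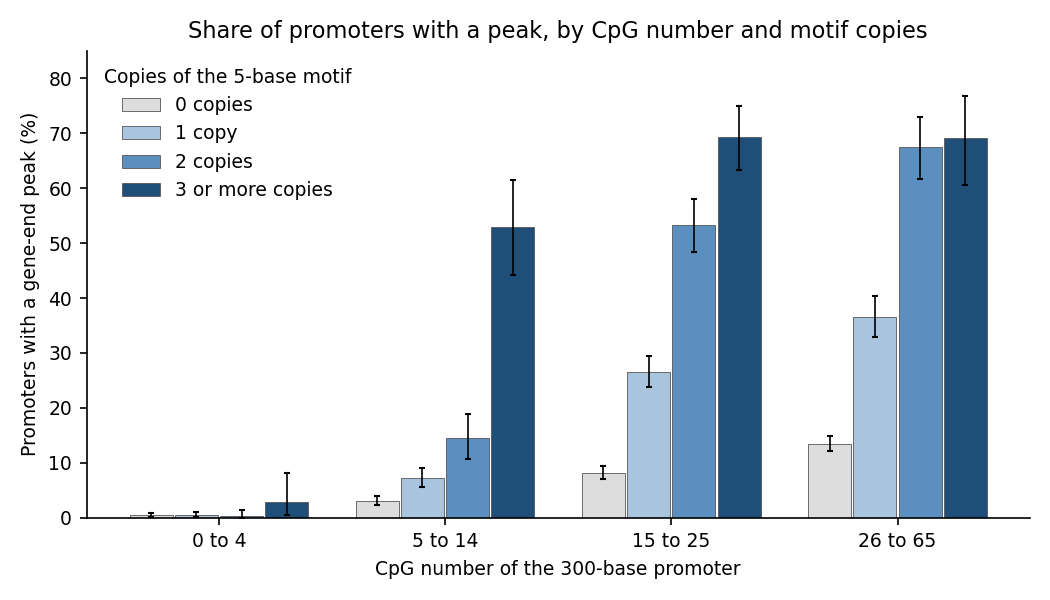
Share of promoters with a peak at the gene end (vertical axis, %) by CpG number of the 300-base promoter (horizontal axis) and by number of CCAAT copies (shades), with 95% binomial intervals. In the 2 groups with most CpG the share is 8.24% and 13.5% with no copy and 69.3% and 69.1% with 3 or more.

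Read ends were then counted by their distance from each CCAAT, read so that CCAAT runs 5' to 3'. At 2707 copies in promoters with a peak, the motif held 0.742 S phase and 0.733 G1 read ends per copy and 10 bases, scaled from its 5 bases. The 10 bases from 20 to 11 before its first base held 14.8 in S phase and 12.3 in G1, and those from 20 to 29 after it 9.19 in S phase and 8.20 in G1. Between 100 and 150 bases before it the level was 2.20 in S phase and 1.87 in G1. Both libraries thus had an empty stretch over the motif between a pair of crowded flanks, and in both the fullest single base, for ends that extend the way CCAAT reads, was 15 bases before the first C. At 6058 copies in promoters without a peak, read ends were fewer throughout, but the stretch over the motif was again nearly empty. It held 0.159 S phase and 0.181 G1 read ends, against 2.48 and 2.44 in the 10 bases from 20 to 11 before. Over GGGCGG these plain counts ran the opposite way. Its inside held 8.66 S phase and 6.18 G1 read ends per 10 bases, against 3.82 and 3.19 in the 10 bases from 20 to 11 before.

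**Figure D5:**
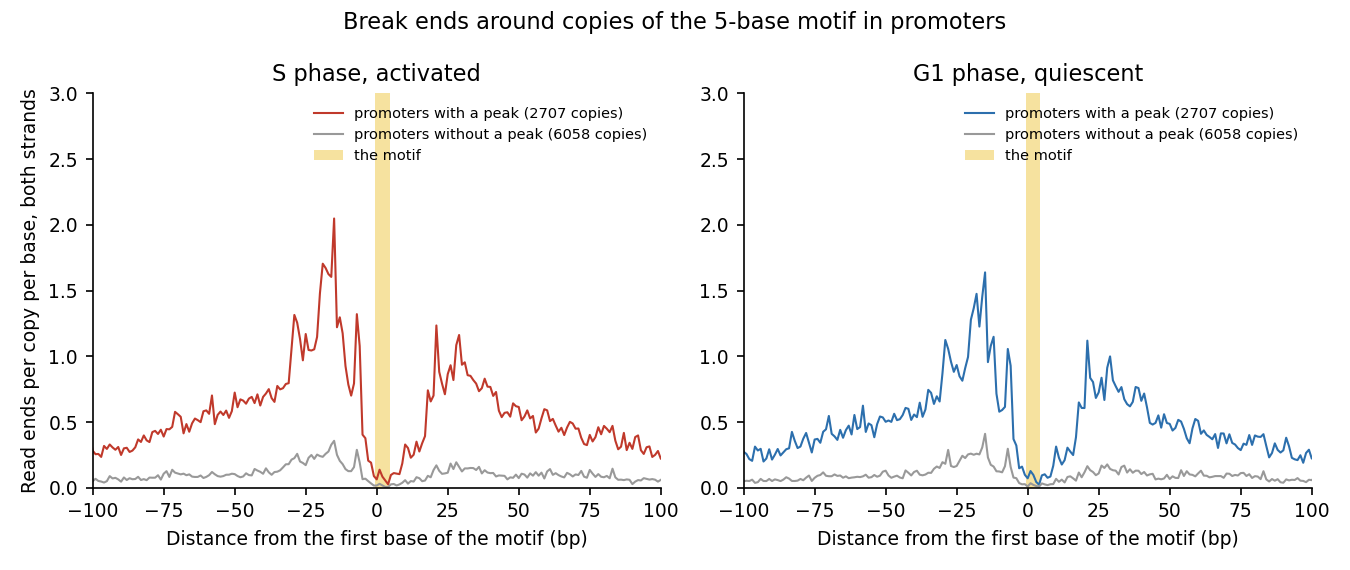
Read ends of both strands per copy and base (vertical axis) against the distance from the first base of CCAAT (horizontal axis, bp, with CCAAT running left to right), in S phase (left) and G1 (right), for 2707 copies in promoters with a peak (colour) and 6058 in promoters without (grey). The shaded motif holds few ends, and the highest points lie about 15 bases before it in both libraries. Promoters with only a left-out bin within reach count as without a peak.

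The letters at the read ends bear on such counts, because 62.7% of the covered positions of S phase and 64.6% of those of G1 in promoters with a peak began with C on the read's strand, where 31.3% of the letters are C. In promoters without a peak it was 65.2% in S phase and 64.6% in G1. The counts were therefore repeated per C on the read's strand. Per C, the inside of CCAAT held 0.0284 S phase and 0.0316 G1 read ends, the bases from 20 to 11 before it 1.57 and 1.35, and the flank from 60 to 100 bases before it 0.517 and 0.462. Per CC pair, to match the letters of the motif's own start, the inside held 0.0340 S phase and 0.0417 G1 read ends, which are 92 and 113 reads at 2707 places, and the bases before it 2.29 and 2.03. Per C the level inside CCAAT thus stayed far under that of its flanks. This held in promoters without a peak too. There the inside held 0.00743 S phase and 0.00578 G1 read ends per C, against 0.331 and 0.332 in the bases from 20 to 11 before. The difference over GGGCGG was smaller per C: its inside held 0.629 S phase and 0.455 G1 read ends, against 0.419 and 0.353 in the bases from 20 to 11 before it, and 0.561 and 0.470 in the flank from 60 to 100 bases before it. In G1 the inside of GGGCGG was thus not above that flank. With each position counted once, the bases before CCAAT held 9.06 times the level inside in S phase and 10.0 times in G1, against 19.9 times in S phase and 16.8 times in G1 by reads. Neighbouring copies in 1 promoter lay a median of 43 bp apart with a peak and 54 bp without. Why C is frequent at read ends, and what part this has in the peaks, was not tested.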

How the data were processed

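END-seq break ends were measured in 1 S phase and 1 G1 library of mouse CD43- splenic B cells. The deposited files hold counts of read ends per base and strand of mm10, per the file headers, not normalized. Bowtie 1.1.2, SAMtools 1.11, bedtools and mm10 are named in the submitters' processing notes, while the sources used here give neither their order, their settings nor how duplicates were treated. Entries wider than 1 base were counted at each base.

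Reads of both strands were summed in 1 kb bins with Python 3.11.15, numpy 2.4.6, pandas 2.3.3 and scipy 1.17.1, and drawn with matplotlib 3.10.9. A local median under 1 was set to 1, and it was taken over 101 bins. Ratios are of RPM (reads per 1000000) on chromosomes 1 to 19. The rule was tested on simulated data with planted peaks. Gene coordinates came from RefSeq tables of GRCm38.p6 and strand from the promoter table, which lacks 4205 protein-coding genes. Intervals are exact (Clopper-Pearson for shares, conditional Poisson for ratios) at 95%. The data hold no molecular identifiers, so intervals and the limit of 3 reads for a count of 0 cover counting error only. A peak counted as 1-sided with at least 80% of its reads on 1 strand. Unnamed or predicted gene models were passed over in naming, such as 4933440N22Rik with 236 S phase and 174 G1 reads at its 3' end. Other genes were named by most reads in each class (in the library or libraries of the call), by the highest and lowest ratio with 50 reads in both libraries, and by nearness to the threshold. A gene that this rule also names is not reported here. Listed genes with a peak, and examples of 1-sided peaks, were named after their values were seen. The members and lists were chosen with earlier results of these data known. Promoter sequences were printed where the table's start equals the gene's coordinate and at least 40% of the bin's S phase reads lay in them.

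Alternatives were other folds, read minimums, distances, scalings and bin offsets, each covered position once, and positions capped at the 99.9th percentile. Capping and single counting with the bins kept were added after seeing the data.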

Additional observations from a re-analysis of the deposited data

How the results depend on the processing

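The number of gene-end peaks was 2168, and it was 813 at a fold of 20, 3387 at a fold of 5, 1366 with at least 100 reads and 206 with each covered position counted once. Called in both libraries were 1215 bins, and 376 at a fold of 20, 2099 at a fold of 5 and 11 with each position once. Called in S phase only were 867, and 409 at a fold of 20, 431 with 100 reads and 192 with each position once. Called in G1 only were 86, and 28 at a fold of 20, 353 at a fold of 5 and 3 with each position once. The share at starts, 98.4%, was 97.4% at a fold of 5 and 97.6% within 2 kb. The share of promoters with CCAAT among those with a peak, 70.8%, was 82.5% at a fold of 20 and 60.1% at a fold of 5.

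The summed S-over-G1 ratio of 1.62 kept its direction under all alternatives that were run. It was 1.61 at a fold of 20, 1.59 at a fold of 5, 1.60 with 100 reads, 1.56 with no bins left out and 1.61 with the 300 bins with most S phase reads left out too. It was 1.44 with each position once (1.497 on the same bins), 1.59 with positions capped (1.59 on the same bins) and 1.63 scaled to reads outside peaks. The minus-strand ratio at bins chosen on the plus strand, 1.56, was 1.51 with no bins left out, 1.39 with each position once, 1.53 with positions capped, 1.57 with shifted bins and 1.60 with the strands exchanged. Bins with a ratio of at least 2 numbered 625, and 159 at a fold of 20, 1010 at a fold of 5, 323 with 100 reads and 11 with each position once.

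The 1-sided share of S phase peaks, 14.7%, was 0 with each position once (4.803% on the same bins), 13.03% with positions capped (13.2% on the same bins) and 3.17% at 90% of reads. The G1 share, 16.2%, was 0 with each position once (6.23% on the same bins) and 3.69% at 90%. The share with plus-strand ends to the right, 84.3% in S phase, was 89.4% at a fold of 20, 81.4% at a fold of 5, 88.0% with 100 reads, 96.6% with each position once (89.5% on the same bins) and 79.9% by mean position. In G1, 82.8%, it was 86.8%, 78.7%, 85.5%, 85.7% (89.4% on the same bins) and 79.5% in the same order. The cause of these changes was not tested. No library could be left out and no paired analysis was possible because each group had 1 library. Depth limits single peaks, and counting each position once moved 13 of 33 named ratios. Repeated reads of 1 molecule cannot be told from separate ends.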

Other observations

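Pairs of covered positions on opposite strands of the gene-end bins had an uneven distance. In S phase, each distance with the plus-strand end 2 to 12 bases left of the minus-strand end had between 716 and 871 pairs, against 1871 at 1 base left and 2873 at 6 bases right. In G1 the same distances had between 277 and 349 pairs, against 740 at 1 base left and 1220 at 5 bases right.

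The start of Rnf166, a ubiquitin ligase, was the only gene-end peak with no G1 read. It held 64 S phase reads on 14 positions and 0 G1 reads, which is at least 27.9-fold higher in S phase when a limit of 3 G1 reads is used. The chromosomes differed in the summed ratio of their gene-end peaks, between 1.53 on chromosome 17 and 1.79 on chromosome 18.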
